A study of Mus musculus with 6 samples.

Results

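Interferon-stimulated genes are the genes that cells switch on when type I, type II or type III interferon binds its receptor. Here 36 of them, named in a list drawn up with earlier results of these data known, were looked up by symbol among the 56953 Ensembl genes of the table, and each of the 36 matched 1 gene. They were measured in 6 mouse cell lines of pancreatic ductal adenocarcinoma, KPC142, KPC180, KPC469, KPC490, KPC630 and KPC850, each labelled as coming from KPC mice. KPC is the usual name of a genetically engineered mouse model of pancreatic cancer. The labels give no treatment and no replicate, and do not say which line draws few or many CD8+ T cells into its tumours, although that property is the subject of the study. Each line is therefore its own group with 1 library, every difference between lines is a difference between 2 libraries, and no p-value is given.

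In the canonical pathway, interferons bind the receptor pairs IFNAR1 and IFNAR2 (type I), IFNGR1 and IFNGR2 (type II) or IFNLR1 and IL10RB (type III). The kinases JAK1, JAK2 and TYK2 then phosphorylate transcription factors such as STAT2. STAT2 and IRF9 are subunits of the complex ISGF3, which binds the interferon-stimulated response element (ISRE) in promoters, while the type II response acts through the gamma-activated site (GAS). Some target genes are nearly off until interferon arrives, and others are expressed at a low level in cells given none. In pancreatic tumours the response is studied for its part in antigen presentation and T-cell attraction.

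Library totals ran from 16471558 to 18701274 counts, so that 1 count was worth 0.0532 to 0.0607 CPM, the count scaled to a common library total adjusted by TMM factors. A line with 0 counts allows a level of up to 3 counts, 0.160 to 0.182 CPM. All intervals are 95% exact conditional binomial intervals for the ratio of 2 libraries and cover counting error only. They make no allowance for lines picked as highest or lowest from the same counts. Of 7 epithelial markers, 6 had at least 1 CPM in every line, and Epcam ran from 0.243 to 10.5 CPM. All 8 leukocyte markers and both markers of plasmacytoid dendritic cells, the professional interferon producers, stayed under 1 CPM, with Csf1r the highest at 0.659 CPM. The highest endothelial and fibroblast markers were Kdr at 2.50 CPM and Pdgfrb at 3.05 CPM, the latter in KPC469. The 7 epithelial markers summed to 2861 CPM in KPC469 and to at least 7067 in each other line. The 5 fibroblast markers summed to 5.29 CPM in KPC469 and to at most 2.19 elsewhere, with Dcn and Lum at 0 counts throughout. In KPC469 the fibroblast sum came from Pdgfrb (56 counts) and Pdgfra (41 counts), with Col3a1 at 0 counts as well. Pdgfra was about as high in KPC180, at 2.19 CPM against 2.23. The epithelial markers did not share 1 order: Krt7, Krt8 and Krt18 were lowest in KPC469, Krt19 and Epcam in KPC180, Cdh1 in KPC490 and Sox9 in KPC142, and Sox9 was highest in KPC469 at 43.4 CPM. As in any bulk sample, fewer cells of a kind and less RNA per cell cannot be told apart.

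Of the 36 genes, 13 were silent, meaning under 1 CPM in every line. Another 16 had baseline expression, at least 1 CPM in every line, and 7 were line-dependent, on both sides of 1 CPM. Baseline names a level only, and whether interferon signalling keeps it up was not tested. Of all 21829 protein-coding genes, 43.1% were silent, 47.2% had baseline expression and 9.66% were line-dependent, against 36.1%, 44.4% and 19.4% of the 36. Over the 24900 genes of any type with at least 1 count the shares were 44.0%, 43.7% and 12.3%, against 32.4%, 47.1% and 20.6% of the 34 listed genes with a count. The 13 silent genes were Oas1a, Oas2, Oas3, Oasl2, Ifit1, Ifit3, Isg15, Usp18, Mx2, Rsad2, Gbp3, Ifi44 and Rtp4. Added together, they had 66 counts in KPC142, 36 in KPC630, 28 in KPC850, 24 in KPC180, 11 in KPC490 and 8 in KPC469. The 16 with baseline expression were Stat2, Irf9, Irf1, Oasl1, Ifit2, Ifitm2, Bst2, Trim25, Herc6, Parp9, Dtx3l, Eif2ak2, Isg20, Samd9l, Ifi27 and Ifi35, and the 7 line-dependent ones were Irf7, Ifitm1, Ifitm3, Mx1, Parp14, Gbp2 and Xaf1.

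**Figure D1:**
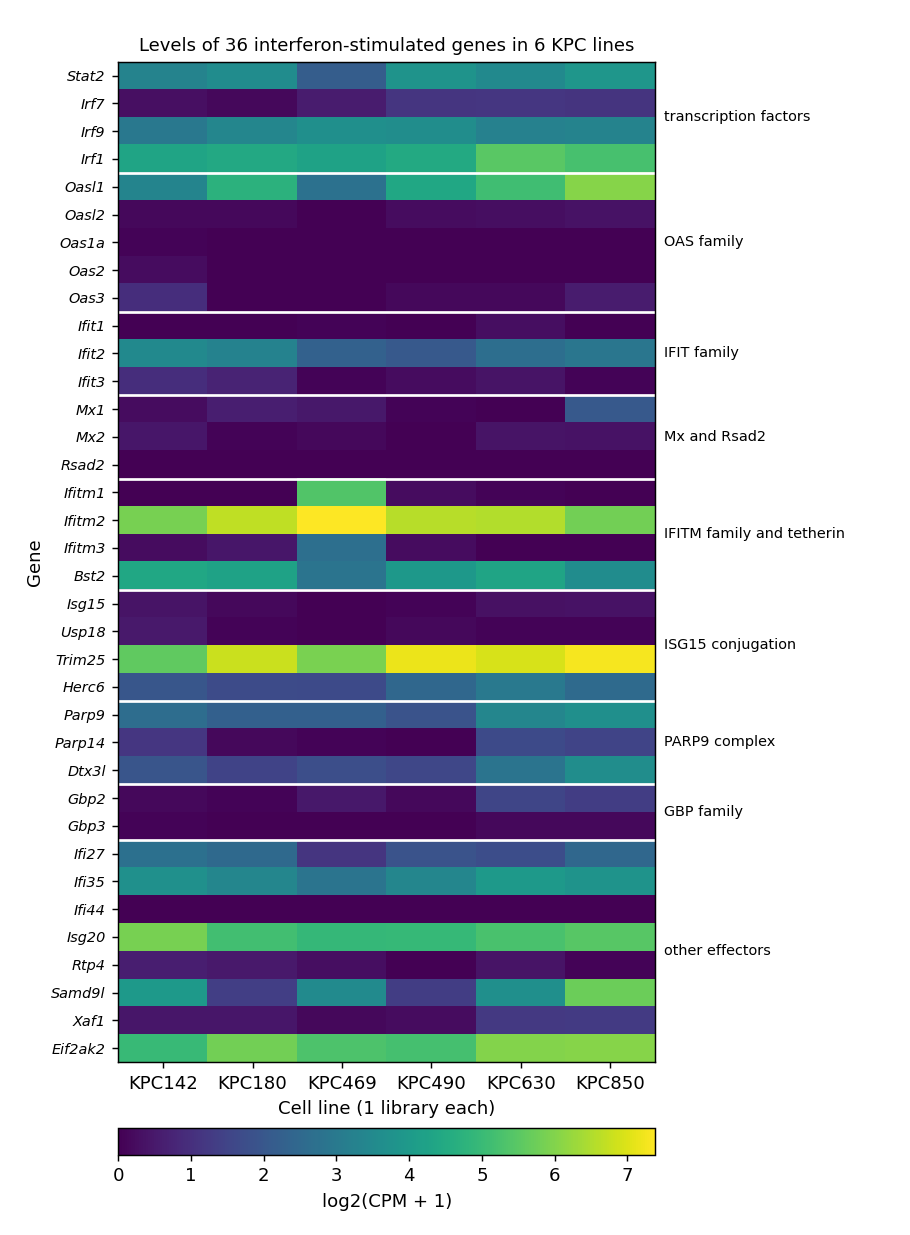
Level of each of the 36 genes (rows, grouped by role) in each line (columns, 1 library each) as log2(CPM + 1), from dark (0) to yellow. Whole families are dark apart from 1 member, such as Oasl1 at 5.72 to 64.6 CPM among the OAS genes, and Ifitm1 is bright in KPC469 alone, at 40.3 CPM.

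**Figure D2:**
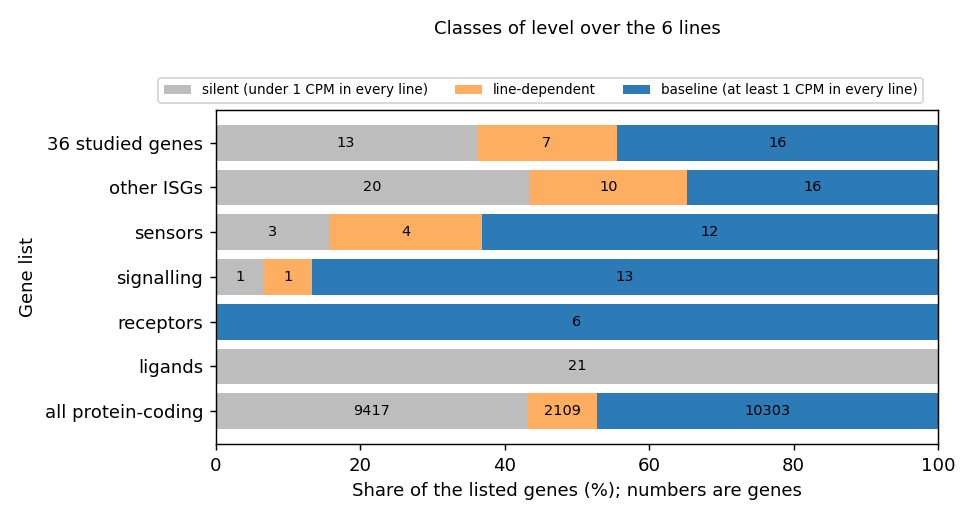
Share of genes in each list (bars, in percent, with the number of genes written inside) that were silent, line-dependent or at baseline over the 6 lines. All 21 interferon genes were silent and all 6 receptor chains were at baseline, while the 36 studied genes divided into 13, 7 and 16.

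Interferon genes themselves were not detected at levels above 1 CPM. Of 21 ligand genes, 18 had 0 counts in all 6 lines, among them Ifnb1, Ifng, Ifnl2 and Ifnl3. The highest was Ifne, the epithelial type I interferon, at 0.303 CPM in KPC180. All 6 receptor chains were expressed in every line. Ifnar1 lay between 45.4 CPM in KPC142 and 80.9 in KPC469, and Ifnar2 between 16.1 in KPC142 and 25.6 in KPC850. Ifngr1 spanned 52.1 CPM (KPC469) to 190.1 (KPC630), a ratio of 3.65 (3.40 to 3.92), and Ifngr2 from 32.95 in KPC180 to 84.5 in KPC850. Ifnlr1, the type III chain, ran from 5.80 in KPC630 to 17.3 in KPC142, and Il10rb from 12.8 in KPC142 to 29.4 in KPC850. All 6 reached 10 CPM in a line and none varied 4-fold, beside 15.5% of all genes at that level that did. Among the kinases, Jak1 stood at 96.7 to 183.5 CPM, Jak2 at 99.2 to 168.0 and Tyk2 at 22.95 to 57.8. Of the feedback inhibitors, Socs1 stayed at 1.38 to 3.67 CPM and Socs3 at 19.8 to 49.8.

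The transcription factors of the list were mostly at baseline. Stat2, the ISGF3 subunit, stood at 3.49 CPM in KPC469, 8.87 in KPC142, 10.3 in KPC630, 11.0 in KPC180, 12.9 in KPC490 and 13.6 in KPC850. KPC469 was below every other line, and its next neighbour was 2.54-fold higher (1.89 to 3.47). Irf9, the DNA-binding subunit, took another order, with 6.71 in KPC142, 8.47 in KPC630, 8.86 in KPC850, 9.41 in KPC180, 11.3 in KPC490 and 11.8 in KPC469. Irf9 shares sequence on the same strand with Rnf31 in the annotation, and Rnf31 reached 22.4 CPM, so its counts are uncertain. Irf1, a factor induced by type II interferon, stood at 17.9 in KPC469, 19.1 in KPC142, 20.9 in KPC180, 21.3 in KPC490, 36.4 in KPC850 and 44.4 in KPC630. Its 2 highest lines stood clear of the other 4, which differed little. Irf7, which amplifies type I interferon production and overlaps Phrf1 (up to 113 CPM) on the other strand, was at 1.17 to 1.22 CPM in KPC490, KPC630 and KPC850 and at 0.121 to 0.490 in the other 3 lines.

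Of the OAS family, which senses double-stranded RNA, 4 of 5 genes were silent and the exception was Oasl1. Oasl1 (ENSMUSG00000041827), a catalytically inactive member that restrains Irf7 translation, stood at 5.72 CPM in KPC469, 9.11 in KPC142, 19.98 in KPC490, 25.7 in KPC180, 33.7 in KPC630 and 64.6 in KPC850. KPC850 exceeded KPC469 by a ratio of 11.3 (9.24 to 13.9), and KPC850 was 1.92-fold above KPC630 (1.74 to 2.12). Its relative Oasl2 reached only 0.292 CPM. Oas1a had 1 count and Oas2 had 3, all in KPC142, and Oas3 peaked at 0.959 in the same line. The 7 other Oas1 genes, looked up after these values were seen, were silent as well, with 0.719 CPM at most. Oas1a is 97.6% identical to Oas1g over 1861 bases, but Oas1g had 0 counts throughout.

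The IFIT genes, whose proteins bind foreign RNA ends, divided in the same way. Ifit2 stood at 3.19 CPM in KPC490, 3.92 in KPC469, 5.32 in KPC630, 6.41 in KPC850, 8.68 in KPC180 and 10.4 in KPC142, a 3.26-fold range (2.40 to 4.505). Ifit1 reached 0.213 CPM and Ifit3 0.959, the latter in KPC142. Ifit3 matches Ifit3b at 97.8% over 1700 bases, and Ifit3b had 0.160 CPM at most. The GTPase gene Mx1 had 3.15 CPM in KPC850 (54 counts) and 0.546 or less elsewhere. Many laboratory mouse strains carry a defective Mx1 allele. Mx2, which matches Mx1 at 94.8% over 921 bases, reached 0.3595 CPM, and Rsad2, which encodes viperin, had 0 counts in all 6 lines, as did Ifi44.

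The IFITM family, small membrane proteins that block virus entry, held the largest ratio of the 36 genes. Ifitm2 was high throughout, at 55.6 CPM in KPC850, 57.6 in KPC142, 90.7 in KPC630, 94.8 in KPC490, 101.3 in KPC180 and 165.9 in KPC469. Ifitm1 (ENSMUSG00000025491) had 740 counts in KPC469, 40.3 CPM, against 3 counts in KPC490, 1 in KPC630 and 0 in KPC142, KPC180 and KPC850. KPC469 was thus at least 221.5-fold above the lines at 0. Ifitm3 followed with 5.45 CPM in KPC469 (100 counts) and 0.364 or less elsewhere, and was at least 31.2-fold higher there than in the lines at 0. KPC469 was the highest line for all 3. Of the remaining IFITM genes, looked up afterwards, Ifitm5, Ifitm6 and Ifitm7 were silent, and Ifitm10 ran from 0.479 to 3.34 CPM. Bst2, or tetherin, which holds budding virus at the surface, was lowest in the line where these were highest: 6.21 CPM in KPC469, 11.0 in KPC850, 14.2 in KPC490, 17.96 in KPC180, 18.7 in KPC630 and 20.01 in KPC142. KPC469 also had the lowest epithelial sum, carried by the keratins while Sox9 was highest there. Its fibroblast sum was the highest, carried by Pdgfrb and Pdgfra alone. The part of either sum in these values was not tested.

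The genes of ISG15 conjugation lay at both ends of the scale. Isg15, the ubiquitin-like protein itself, reached 0.300 CPM and Usp18, which removes ISG15, 0.419, both in KPC142. A near-copy of Isg15 with 95.2% identity over 482 bases had 0.160 CPM at most. The ligase gene Trim25 stood at 46.7 CPM in KPC142, 58.8 in KPC469, 110.8 in KPC180, 121.7 in KPC630, 142.3 in KPC490 and 154.5 in KPC850. Herc6, the main mouse ISG15 ligase, stood at 2.12 in KPC469 and up to 6.87 in KPC630, a 3.23-fold range (2.24 to 4.75).

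Parp9 and Dtx3l encode partners in 1 complex and are known to share a promoter, and they were highest in the same lines. Parp9 (ENSMUSG00000022906) stood at 2.67 CPM in KPC490, 3.76 in KPC469, 3.82 in KPC180, 5.27 in KPC142, 9.53 in KPC630 and 11.7 in KPC850. Dtx3l (ENSMUSG00000049502) stood at 1.82 in KPC180, 1.97 in KPC490, 2.40 in KPC469, 2.88 in KPC142, 6.23 in KPC630 and 11.3 in KPC850. Both thus had KPC850 first and KPC630 next, with ranges of 4.39 (3.17 to 6.18) and 6.18 (4.19 to 9.41). They lie on opposite strands and overlap in the annotation, and whether counting used strand is not given in the sources used here. Dtx3l also shares a 201-base stretch at 91.0% identity with Spc24, which reached 40.1 CPM. Parp14, another ADP-ribosyltransferase, stood at 2.13 in KPC630, 1.87 in KPC850, 1.26 in KPC142 and 0.121 or less elsewhere. Gbp2, a guanylate-binding GTPase of the type II response, had 1.92 in KPC630, 1.52 in KPC850 and 0.381 or less elsewhere. Gbp3 and the 10 other Gbp genes in the annotation, looked up afterwards, were silent.

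Among the other effectors, Samd9l (ENSMUSG00000047735), a restriction factor that also slows growth, varied most. It stood at 1.51 CPM in KPC490, 1.58 in KPC180, 10.7 in KPC469, 11.7 in KPC630, 14.5 in KPC142 and 52.4 in KPC850. The lines fell into a low pair, a middle group of 3 and KPC850, which was 3.61-fold above KPC142 (3.13 to 4.18), and the full range was 34.7-fold (23.5 to 53.4). A gene with 94.9% identity to it over 277 bases, Gm20559, had up to 5.30 CPM, also in KPC850, so a part of its reads may be shared. Eif2ak2, the kinase PKR, stood at 30.2 CPM in KPC142, 36.2 in KPC490, 38.7 in KPC469, 55.4 in KPC180, 63.5 in KPC630 and 65.3 in KPC850. The exonuclease gene Isg20 ranged from 29.4 in KPC469 to 57.0 in KPC142, and Ifi35 from 6.10 in KPC469 to 14.96 in KPC630. Ifi27 ran from 1.20 in KPC469 to 5.63 in KPC142, a ratio of 4.70 (2.93 to 7.85) below the level used for calls. Xaf1, a pro-apoptotic factor, had 1.40 in KPC850, 1.33 in KPC630 and 0.364 or less elsewhere. It shares stretches of at least 200 bases with expressed genes such as Cct6a, at 650 CPM, and Oas3 does so with Txnl4a, at 69.7 CPM, so low values of both are uncertain. Rtp4 reached 0.539 CPM and lies opposite Masp1 (53.4 CPM).

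Levels of different genes can be set side by side only per length, here per kb of merged exons in the annotation. By median CPM per kb over the lines, Ifitm2 led with 141.6, followed by Trim25 with 20.2, Isg20 with 19.3, Bst2 with 17.8, Eif2ak2 with 9.20, Oasl1 with 8.75, Ifi35 with 6.28 and Irf1 with 5.31. The gap below Ifitm2 was wide, whereas Trim25, Isg20 and Bst2 were near each other. The lowest of the 16 baseline genes were Dtx3l with 0.461 and Herc6 with 0.399. The silent Isg15 had 0.256. The classes are set on CPM without regard to length, so a short gene can be silent at a level per kb where a long one is not.

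Here a call means a ratio of at least 4 between the highest and the lowest line, in a gene with at least 10 CPM in 1 line. Of 15 of the 36 genes at that level, 5 were called (33.3%): Ifitm1, Samd9l, Oasl1, Dtx3l and Parp9. Ifitm1, Dtx3l and Parp9 passed 10 CPM in a single line, their highest, so their calls follow in part from the filter. Over all 10234 genes at that level 15.5% were called. The median ratio was 3.26 for the 15 and 1.91 for all genes. Without KPC850 only 3 of the 5 calls were kept, with ratios of 3.64 for Parp9 and 3.46 for Dtx3l, while Oasl1 stood at 6.07 and Samd9l at 9.68. Ifitm1 lost its call without KPC469, and Parp9 lost its call without KPC490 (3.12). For Parp9 the lower counting bound, 3.17, was also under 4. At 1 CPM in place of 10, 12 of 23 genes were called, against 27.1% of all genes. The 12 include all the line-dependent genes, which lie under 1 CPM in some line, so their calls follow in part from the filter. Of these, Ifitm1, Ifitm3 and Mx1 reached 1 CPM in their highest line alone. The lower counting bounds of Irf7 (2.49), Xaf1 (3.19) and Ifi27 (2.93) were also under 4.

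**Figure D3:**
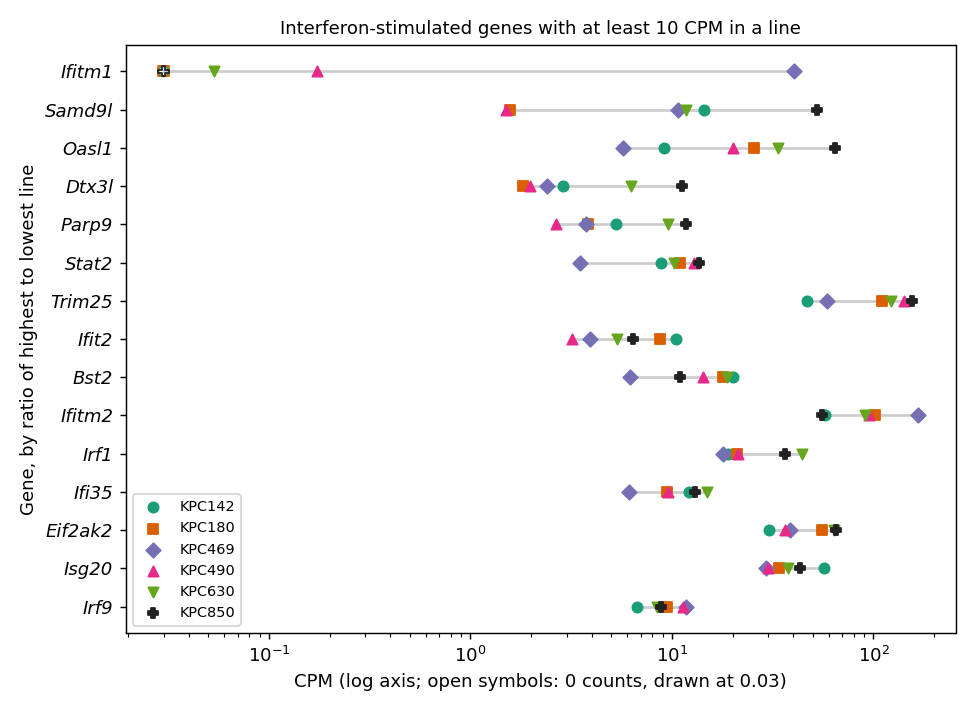
CPM on a log axis for the 15 genes past 10 CPM (rows, ordered by their range), with 1 symbol per line, open at 0 counts, and a grey bar over the range. KPC850 (black plus) lies at the right end for Samd9l, Oasl1, Dtx3l and Parp9, and KPC469 (violet diamond) at the left end for Oasl1 and Stat2 and at the right end for Ifitm1.

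The order of the lines was next compared over the same 15 genes. KPC850 was the highest line for 7 of them (46.7%), against 15.0% of all genes at that level. These were Oasl1, Stat2, Trim25, Parp9, Dtx3l, Samd9l and Eif2ak2, and for 4 of the 7 the interval of the ratio to the next line lay above 1. The highest line was picked from the same counts, so this ratio cannot fall under 1, and the interval does not allow for the picking. Parp9 and Dtx3l reached 10 CPM in KPC850 alone, and so entered the 15 only through the line in which they are then counted as highest, as Ifitm1 did through KPC469 and Ifit2 through KPC142. KPC142 was highest for 3 (all genes 18.2%), KPC469 for 3 (21.4%), KPC630 for 2 (14.0%) and KPC180 and KPC490 for 0 (16.0% and 15.3%). KPC469 was the lowest line for 6 (40.0%), against 20.0% of all genes: Oasl1, Stat2, Irf1, Bst2, Isg20 and Ifi35. For 4 of the 6 the interval of the next line over it lay above 1, the exceptions being Irf1 and Isg20. Here too the line was picked from the same counts. The part of the low keratin levels of KPC469 in this order was not tested. KPC142 and KPC490 were each lowest for 3 (all genes 21.9% and 11.8%), KPC180 and KPC850 for 1 (16.4% and 15.9%) and KPC630 for 0 (13.6%). Ifitm1 was at 0 counts in several lines and had no single lowest one. KPC630 and KPC850 were the 2 highest lines for 6 of the 15 (Oasl1, Irf1, Ifi35, Parp9, Dtx3l and Eif2ak2), 40.0% against 6.16% of all genes, a pattern examined only after the values were seen.

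The median over the 15 genes of log2(CPM + 1), each centred on its own median over the lines, was 0.33 in KPC850, 0.07 in KPC630, -0.01 in KPC180, -0.04 in KPC142, -0.16 in KPC490 and -0.25 in KPC469. Over all genes at that level these medians lay between -0.01 and 0.01. In KPC469, 12 of the 15 genes lay below their median and 3 above it: Ifitm1, Ifitm2 and Irf9. Without KPC490 the median in KPC469 was -0.40. The median in KPC490 was 0.00 without KPC142, KPC180, KPC630 or KPC850 and -0.32 without KPC469. That in KPC630 ran from 0.00 without KPC180 to 0.17 without KPC142. With a line left out the number of lines is odd, so each gene's median is a single line's value and that line deviates by 0.00. Medians of 0.00 follow in part from this, and the order of the middle lines is not settled. In KPC850 and KPC630, 11 of 15 lay above. Those above in KPC850 include Parp9 and Dtx3l, which are among the 15 only through that line, as Ifitm1 is through KPC469. The shares of all genes above or below their median in these lines are not given here. Between the lines with the highest and the lowest median, Oasl1 was 11.3-fold higher in KPC850 than in KPC469 (9.24 to 13.9). Samd9l was 4.91-fold higher (4.20 to 5.76) and Stat2 3.91-fold (2.96 to 5.24). Ifitm2 went the other way, with a ratio of 0.335 (0.311 to 0.361), as did Irf9 with 0.753 (0.608 to 0.931). Ifitm1 did so too, with 740 counts in KPC469 and 0 in KPC850. All the others of the 15 were higher in KPC850. These lines were picked by their medians over the same 15 genes, so the direction of most ratios follows in part from the choice. The intervals make no allowance for it. The median pairwise Pearson r over the 6 lines was 0.221 among 105 pairs, against 0.000 over all pairs of genes at that level. It was 0.455 without KPC142 and 0.098 without KPC850. All these pairs share the same 6 libraries, and the value is a description.

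**Figure D4:**
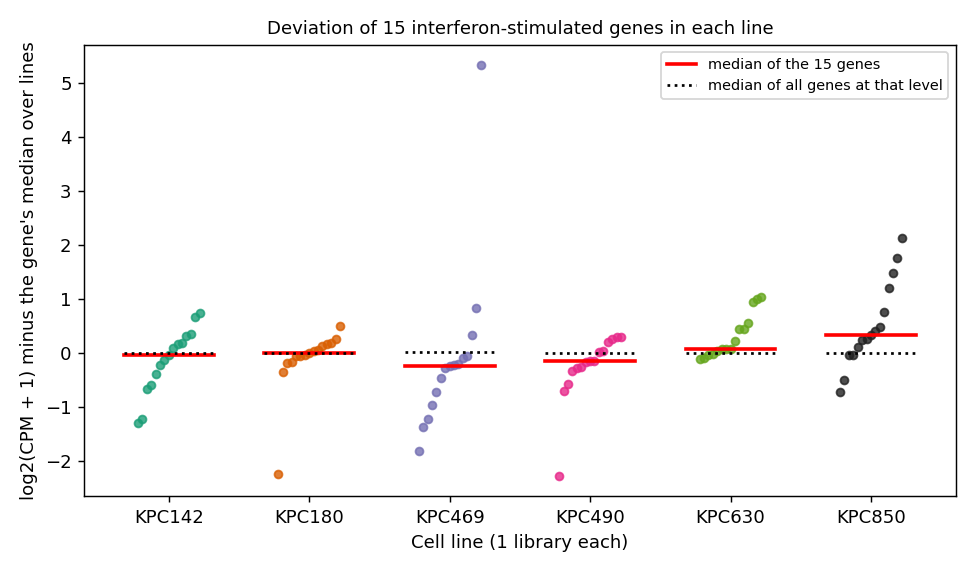
For each line, the deviation of each of the 15 genes from its own median over the lines, in log2(CPM + 1) (points), with their median (red bar) and that of all genes at that level (dotted bar). The red bar is highest in KPC850 (0.33) and lowest in KPC469 (-0.25), where Ifitm1 is the isolated point at the top. Parp9 and Dtx3l are among the 15 only through KPC850, Ifitm1 only through KPC469 and Ifit2 only through KPC142.

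Promoter sequence was set beside these classes, because ISGF3 and other interferon factors act through the ISRE. The motif searched was its core of 2 GAAA half-sites with 2 bases between them, GAAANNGAAA, on either strand, from 250 bases before to 50 after the start of each gene in RefSeq (GRCm38.p6). Of the 36 genes, 28 had an entry, and 13 of these 28 held the core (46.4%), against 3.99% of 27025 genes in that table as a whole. Among the silent genes 7 of 9 did: Oas1a, Oas3, Ifit1, Ifit3, Isg15, Rsad2 and Gbp3. Among the baseline genes 4 of 14 did, namely Ifitm2, Bst2, Stat2 and Eif2ak2, and among the line-dependent genes 2 of 5 did, Ifitm3 and Gbp2. The cores of Eif2ak2 and Ifitm3 lie past the start of the gene, not before it. Over all protein-coding genes the shares were 4.65% of silent, 3.31% of baseline and 4.89% of line-dependent genes. The core was found in none of the entries of Oasl1, Ifitm1, Samd9l and Dtx3l, the called genes with an entry. The GAS core, TTCNNNGAA, a palindrome in its fixed letters, was held by 8 of the 28, against 9.55% of all genes. These were the silent Oas1a, the line-dependent Ifitm3 and 6 of the 14 baseline genes, Irf1, Bst2, Ifit2, Isg20, Ifi35 and Eif2ak2. Those of Ifitm3 and Ifi35 lie past the start.

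The 100 bases before the start are printed for 6 genes, 5′ to 3′ on the gene's own strand, with the ISRE core in capitals. Oas1a (chr5:120907526-120907625, minus strand) and Oas3 (chr5:120777660-120777759, minus) are the first silent genes of the list that hold it. Isg15 (chr4:156200819-156200918, minus), Ifitm2 (chr7:140955962-140956061, minus), Ifitm1 (chr7:140967976-140968075, plus) and Oasl1 (chr5:114923140-114923239, plus) were added after their values were seen. They are a silent gene with overlapping cores, a highly expressed gene with the core, and 2 called genes without it. Of the last 2, Oasl1 is at baseline, while Ifitm1 is line-dependent and under 1 CPM in every line but KPC469. Coordinates are GRCm38.p6, the build of the sequence table, whereas the counts were made on GRCm39.
Oas1a: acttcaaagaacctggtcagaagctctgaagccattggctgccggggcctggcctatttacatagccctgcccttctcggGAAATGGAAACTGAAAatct
Oas3: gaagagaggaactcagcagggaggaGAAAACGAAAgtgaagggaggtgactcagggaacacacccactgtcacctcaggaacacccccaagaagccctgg
Isg15: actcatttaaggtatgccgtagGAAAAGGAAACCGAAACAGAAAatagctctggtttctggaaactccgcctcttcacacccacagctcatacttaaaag
Ifitm2: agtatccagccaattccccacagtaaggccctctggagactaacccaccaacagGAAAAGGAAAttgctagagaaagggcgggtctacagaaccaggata
Ifitm1: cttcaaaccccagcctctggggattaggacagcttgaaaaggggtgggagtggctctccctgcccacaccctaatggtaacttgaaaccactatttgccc
Oasl1: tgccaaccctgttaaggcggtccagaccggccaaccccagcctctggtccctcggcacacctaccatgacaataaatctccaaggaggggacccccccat

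In Isg15 the core occurs 3 times in overlap, the first starting 78 bases before the start of the gene, and in Oas1a 2 overlapping cores start 20 and 14 bases before it. In Ifitm2, expressed in every line, a single core starts 46 bases before. A match says only that these letters are present, and no match that they are not in this window.

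**Figure D5:**
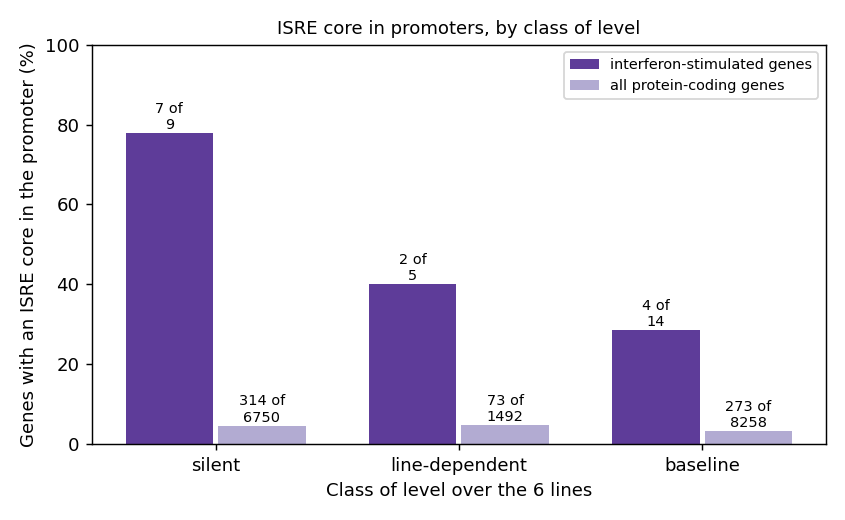
Share of genes with an ISRE core in the promoter (bars, in percent, from 0), for the interferon-stimulated genes with a promoter entry (dark) and for all protein-coding genes (light), by class of level. The numbers above the bars are genes with the core of genes with an entry, with 7 of 9 silent and 4 of 14 baseline interferon-stimulated genes. Eif2ak2 and Ifitm3 are counted through cores past the start of the gene.

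Genes of the wider response were described from lists chosen with earlier results known. Of 46 other interferon-stimulated genes 20 were silent, 16 at baseline and 10 line-dependent, and 6 of the 16 with at least 10 CPM were called, against the 15.5% of all genes given above. The largest range was that of Ifi203, of the PYHIN family, from 0.539 CPM in KPC142 to 41.2 in KPC850, a ratio of 76.3 (40.0 to 167.6). Ly6e, a membrane protein gene, ran from 16.1 in KPC180 to 703.6 in KPC490, and Cd274 from 0.708 in KPC469 to 10.8 in KPC490. Parp12 was highest in KPC142 at 12.3, Lgals3bp in KPC469 at 740.9 and Tdrd7 in KPC180 at 83.3, with ranges of 8.81, 5.83 and 4.04. These genes peaked in 5 different lines. Cd274 and Parp12 passed 10 CPM only in their highest line, so their calls follow in part from the filter. For Tdrd7 the lower counting bound, 3.605, was under 4. Of 19 sensor genes 12 were at baseline, 4 line-dependent and 3 silent, and 6 of the 12 with at least 10 CPM were called, beside the same 15.5%. Protein-coding genes in general were silent in 43.1%, at baseline in 47.2% and line-dependent in 9.66%. Aim2, a DNA sensor of the inflammasome, had 85.3 CPM in KPC850, 47.0 in KPC630, 4.13 in KPC142, 3.08 in KPC490, 0.364 in KPC180 and 0 counts in KPC469, at least 521.7-fold between the extremes. Tmem173, encoding STING, was at 12.5 in KPC630 and 1.70 or less elsewhere. Ikbke, Tlr3, Ddx58 (RIG-I) and Ifi204 had ranges of 24.4, 4.30, 4.73 and 4.99, with the first 2 highest in KPC850 and the others in KPC142. Tmem173, Tlr3 and Ddx58 passed 10 CPM in a single line, their highest, so their calls follow in part from the filter. The lower counting bounds of Tlr3 (3.155), Ddx58 (3.42) and Ifi204 (3.95) were under 4.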

How the data were processed

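Libraries of 6 cell lines were made with a stranded mRNA kit, per the labels' protocols. RSEM 1.3.3, STAR 2.7.10b, Trimmomatic 0.36 and the build GRCm39 are listed, with no role or order, in the submitters' processing notes. Values in the deposited file are expected counts, which the authors left unscaled, estimates that share ambiguous reads among genes. Between 5.28% and 5.66% of values in a library were not whole, and all were rounded here. All 6 value columns matched 1 sample title each.

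TMM factors came from edgeR 4.0.16 in R 4.3.3 on the 11531 genes that filterByExpr kept. They were 0.986 to 1.01, and no test was run. Names came from GENCODE vM21 (GRCm38), which matched 52029 identifiers and was used for names, exon length and overlaps. Near-copies came from BLAST 2.17.0, at 90% identity or more along 200 bases or more. Ratios with a line at 0 counts used a floor of 3 counts per library and are bounds. Class shares over all genes with a count were planned, and those over protein-coding genes were added after the data were seen. The fold call was tested on simulated data. All 36 genes were named, as were every receptor, 5 signalling genes (1 more that the rule names is not reported here), and up to 6 genes of the sensor list and of the list of other interferon-stimulated genes with the largest range. The members and lists were chosen with earlier results of these data known. The planned print of IFITM proteins was left out. Alternatives were DESeq2 1.42.0 size factors, library totals, other levels and folds, unrounded counts, and each line left out.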

Additional observations from a re-analysis of the deposited data

Results flagged for a closer look

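Over the 6 lines, taken as samples of 1 kind though they are not replicates, 2 of the 15 genes past 10 CPM had 1 line far from the rest in log2(CPM + 1). For Ifitm1 the gap between KPC469 and the next line was 0.957 of the whole range, with 740 counts there and 3 or fewer in each other line. Ifitm1 is among the 15 only through KPC469, which fixes that line as the distant one, so this gap is a description and adds no support. For Stat2 the gap between KPC469, the lowest line, and the next was 0.666 of the range, with 3.49 CPM against 8.87 or more elsewhere. Both values lay above Dixon's 95% limit for 6 values, used here only to mark genes for a closer look. The limit assumes replicates of 1 kind, and these are 6 different lines, so it decides nothing about either gene. For Ifitm1 the passing also follows in part from the filter on level. Chance marks about 1 in 20 such groups of values. The share of all genes at that level past the same limit is not given here. The count of 2 in 15 is therefore not a result about the list.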

How the results depend on the processing

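With DESeq2 size factors or library totals, all class counts, the 5 calls and the medians by line stayed within the limits set for no change (1.5 times for counts, 0.1 for medians and correlations). Taking silence at 0.5 CPM gave 10 silent genes and at 2 CPM 16, against 13. Without KPC469, 15 were silent and 5 line-dependent. The number of calls rose from 5 to 12 with genes of at least 1 CPM and to 13 with a ratio of at least 2, which 45.1% of all genes reach. On the genes filterByExpr keeps it was again 5, with Ifi27 in place of Ifitm1. With each line left out it was 3 to 5. The median deviation in KPC469 was -0.40 to -0.21 with other lines left out (-0.25 with all), and that in KPC850 0.23 to 0.41 (0.33), and 0.21 with no filter on level. The median in KPC630 was 0.22 with genes of at least 1 CPM, or without families with near-identical copies, against 0.07. The median pairwise correlation was 0.098 to 0.455 with a line left out. The largest moves were without KPC490 for KPC469, and without KPC142 and KPC850 for the correlation, and the cause was not tested. Of the values of single genes and lines under these alternatives, 224 stayed within their limits and 36 did not. No paired analysis was possible because each line has 1 library. With 1 library per line there is no estimate of variation within a line, and values under about 1 CPM rest on fewer than 20 counts.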
